A study of Mus musculus with 12 samples.

Results

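The genes described here encode metalloproteinases that cut extracellular matrix and cell surface proteins, related proteins without protease activity, tissue inhibitors and the urokinase receptor. They were chosen by symbol among the 3939 genes of the authors' deposited table: matrix metalloproteinases (Mmp), tissue inhibitors of metalloproteinases (Timp), disintegrin metalloproteinases (Adam), their secreted relatives with thrombospondin type 1 repeats (Adamts) and ADAMTS-like proteins (Adamtsl), with Plau, Plaur, Plat, Htra1 and Htra3 added by name and a single ADAMTS gene left out by the rule. The rule found 28 genes of 3939. They comprise 7 Mmp, 2 Timp, 4 Adam, 10 Adamts and 4 Adamtsl genes and Plaur.

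The RNA came from the whole left ventricle of wild-type C57Bl6J/129X1 hybrid mice that were infused for 3 days with NaCl (controls, 3 female and 3 male libraries) or with AngII/PE (3 female and 3 male libraries). AngII/PE most often stands for angiotensin II, a peptide that raises blood pressure, with phenylephrine, an agonist of alpha-1 adrenergic receptors. All 12 libraries share the genotype, and the sources used here do not give the age of the mice. Each value below is the authors' average log2 fold change of treated over control libraries with their adjusted p, and values per library, depth and standard errors were not used here.

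Matrix metalloproteinases and ADAMTS enzymes are made as inactive precursors, and removal of a propeptide exposes a zinc-bound active site. TIMPs block that site, each with its own range of targets. Transmembrane ADAM proteins release growth factors, cytokines and receptors from the cell surface, a step called shedding, while ADAMTS enzymes cut proteoglycans, procollagens and microfibril proteins. ADAMTS-like proteins have the repeats of ADAMTS enzymes without the protease domain. In the heart these families take part in the turnover of the matrix during growth, injury and pressure overload.

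The protease genes were mostly higher after AngII/PE, and the inhibitors moved furthest in both directions. Timp1 had the largest rise and Timp4 the largest fall among the 28 genes, by the values of the authors' deposited table. Among the enzymes, the ADAM genes Adam8 and Adam12 had the largest rises, followed by Adamts8 and Mmp14. Of the 28 genes 22 rose and 6 fell (Timp4, Adamts17, Adamts7, Mmp15, Adam23 and Adamts3). Every gene in the authors' deposited table has an adjusted p below 0.05 (100% of the 3939), so being called describes how the table was made and is no result about the 28. By direction, 56.2% of all listed genes were higher and 43.8% lower, against 78.6% of the 28 higher. On the log2 scale 14 of the 28 rose by 1 or more, which 30.7% of all listed genes did. Values of at least 2 were listed for 5 (17.9%; 8.5% of all listed genes), and Timp4 alone was at or below -1 (6.96% of all listed genes). The median over the 22 that rose was 1.26, beside 1.06 over all listed rises, and over the 6 that fell it was -0.65, beside -0.63 over all listed falls.

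**Figure D1:**
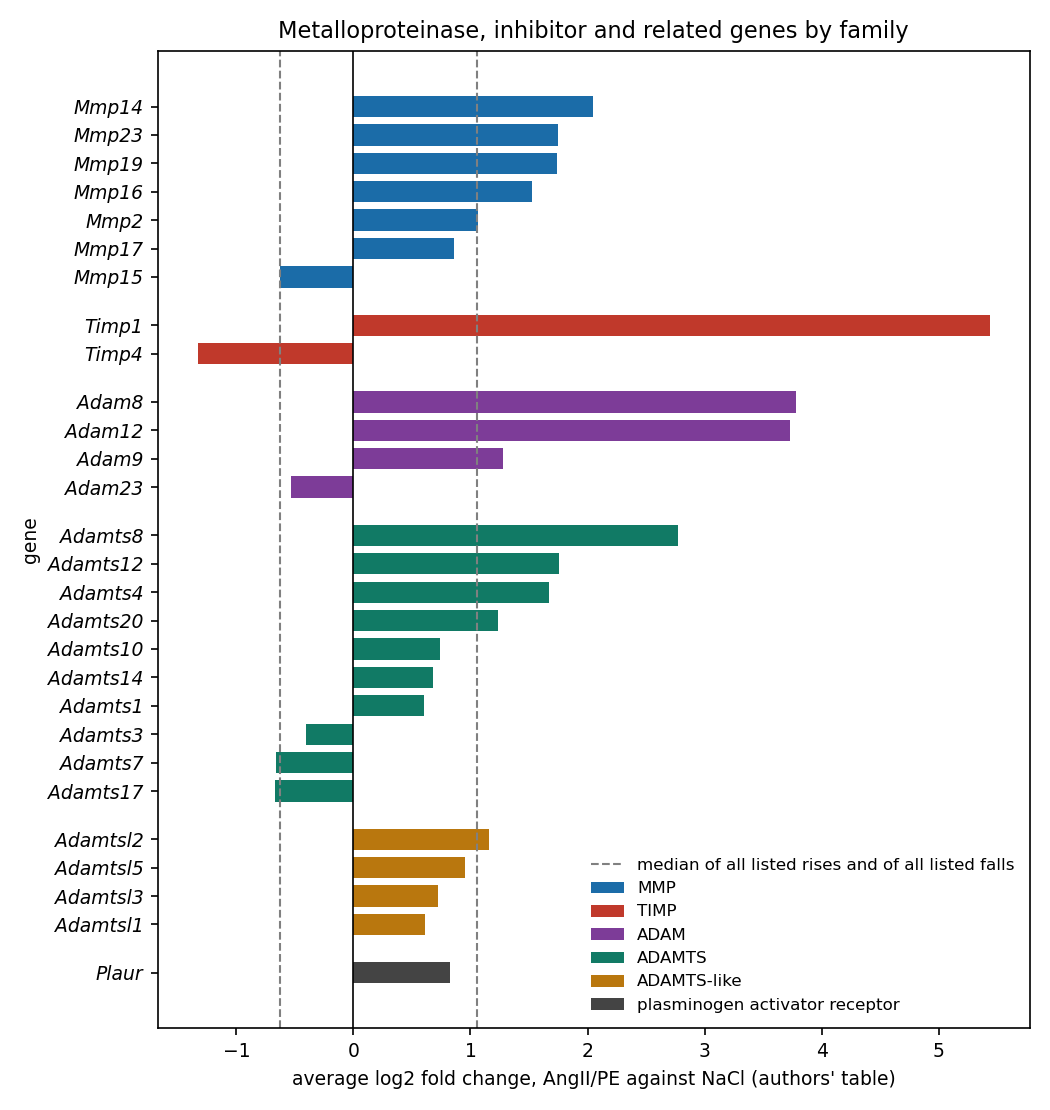
Average log2 fold change of AngII/PE against NaCl for the 28 genes, grouped by family and coloured by it; no error is given with the authors' values. Dashed lines mark the medians of all listed rises (1.06) and all listed falls (-0.63). Timp1 at 5.44 is the longest bar and Timp4 at -1.33 the longest to the left.

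The tissue inhibitors went opposite ways. Timp1, a secreted inhibitor that is low in many resting tissues and induced by injury and cytokines, stood in the authors' deposited table at a log2 value of 5.44 (43.4-fold, adjusted p = 3.00e-72). It ranked number 12 of the 2213 listed rises. Timp4, the family member known for its high level in heart muscle, was at -1.33 in the authors' deposited table (2.52-fold lower, adjusted p = 7.68e-35) and ranked number 114 of the 1726 listed falls. Timp2 and Timp3 have no value in the table, which does not show that they did not change. Timp1 is at chromosome X, 20870166 to 20874735 (plus strand), and Timp4 at chromosome 6, 115241892 to 115252205 (minus strand), in GENCODE M21 on GRCm38, the assembly of mm10. Both are nested in synapsin genes on the opposite strand. The host of Timp1, Syn1, was at 0.75 with an adjusted p of 0.0370 in the authors' deposited table and shares no exonic bases with Timp1 in the annotation. The host of Timp4, Syn2, has no value in the table and does share exonic bases with it.

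The promoters of this pair that moved in opposite directions are shown with that of Plaur, because Timp1 and Plaur hold the AP-1 type motifs found among these genes. The windows run 5′ to 3′ from 250 bases before to 50 bases after the RefSeq start (GRCm38.p6), in lower case, with AP-1 type motifs in capitals:
Timp1, chrX:20869916-20870215, plus strand: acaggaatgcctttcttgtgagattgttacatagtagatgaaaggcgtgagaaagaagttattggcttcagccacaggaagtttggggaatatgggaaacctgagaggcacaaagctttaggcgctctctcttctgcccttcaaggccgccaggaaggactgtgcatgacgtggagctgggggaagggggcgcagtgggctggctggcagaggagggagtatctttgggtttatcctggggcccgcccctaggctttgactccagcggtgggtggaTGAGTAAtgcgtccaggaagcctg
Timp4, chr6:115252156-115252455, minus strand: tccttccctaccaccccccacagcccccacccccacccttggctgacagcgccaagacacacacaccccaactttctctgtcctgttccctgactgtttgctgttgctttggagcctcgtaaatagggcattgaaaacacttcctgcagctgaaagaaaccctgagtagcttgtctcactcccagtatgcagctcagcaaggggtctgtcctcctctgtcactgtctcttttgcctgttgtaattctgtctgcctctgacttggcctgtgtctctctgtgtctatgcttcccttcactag
Plaur, chr7:24462233-24462532, plus strand: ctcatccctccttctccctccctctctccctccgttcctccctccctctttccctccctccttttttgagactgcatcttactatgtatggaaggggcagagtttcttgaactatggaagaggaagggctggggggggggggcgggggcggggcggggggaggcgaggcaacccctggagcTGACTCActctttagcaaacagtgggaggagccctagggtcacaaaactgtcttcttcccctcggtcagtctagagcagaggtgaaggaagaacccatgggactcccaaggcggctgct

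AP-1 is the dimer of Fos and Jun family proteins that acts on many protease and inhibitor genes. The motif TGANTCA, searched on both strands, begins at position -69 of the Plaur window, counting the RefSeq start as 0, and is in none of the windows of the other 16 genes of this set found in the RefSeq table. It is in 8.97% of the 27025 genes of that table. The variant TGAGTAA, known from the mouse Timp1 promoter and searched for that reason, begins at position 26 of the Timp1 window. It is in none of the other 16 and in 3.09% of all genes there. The Ets core CCGGAAG is in none of the 17 (9.93% of all), the TEAD motif GGAATG in Timp1 alone (16.6% of all) and TATAAA in Adamts1 and Adamtsl2 (15.7% of all). These matches describe letters and show no binding. The 17 genes with a window are Adam8, Adam23, Adamts1, Adamts3, Adamts12, Adamts14, Adamts17, Adamts20, Adamtsl2, Adamtsl3, Adamtsl5, Mmp14, Mmp15, Mmp23, Plaur, Timp1 and Timp4.

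Of the matrix metalloproteinases, 6 rose and Mmp15 fell. Mmp14, a transmembrane collagenase at the cell surface that also activates the Mmp2 precursor, led them at 2.05 (4.14-fold) in the authors' deposited table. Its adjusted p of 1.11e-126 was the lowest of the 28 and number 100 of the 3939 in the authors' deposited table. Mmp2, the secreted gelatinase that Mmp14 activates, was at 1.06 (adjusted p = 1.07e-32) in the authors' deposited table, a rise larger than 50.1% of the listed rises. The partner in that activation step, Timp2, has no value in the table.

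The membrane-bound enzymes did not move as a block. Mmp16, like Mmp14 a transmembrane enzyme, was at 1.53 (adjusted p = 9.99e-08) and Mmp17, which is held by a glycolipid anchor, at 0.86 (adjusted p = 3.78e-04) in the authors' deposited table. Mmp15, of the same transmembrane type as Mmp14 and Mmp16, fell by 0.63 on the log2 scale (adjusted p = 7.23e-50) in the authors' deposited table. Mmp14 lies at chromosome 14, 54431612 to 54445364, and Mmp15 at chromosome 8, 95352268 to 95375080, both on the plus strand. Timp1 is known as a weak inhibitor of the transmembrane types.

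Mmp23, a short enzyme without the hemopexin domain that most of the family has, was at 1.74 (adjusted p = 3.32e-60) in the authors' deposited table. Mmp19, a secreted enzyme of basement membrane proteins, had the same rounded size, 1.74, with an adjusted p of 1.40e-18 in the authors' deposited table. Mmp19 shares exonic bases with the antisense gene Gm47093 and with Tmem198b on the opposite strand, and neither has a value in the table. The other 15 of 22 annotated protein-coding Mmp genes that the symbol rule matches have no value. Among them are the neutrophil collagenase gene Mmp8, the gelatinase gene Mmp9, and the stromelysin and collagenase genes Mmp3 and Mmp13.

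Of the 4 listed ADAM genes, 3 rose. Adam8, a sheddase known from leukocytes, reached 3.78 in the authors' deposited table (13.7-fold, adjusted p = 1.09e-57). Adam12, known as meltrin alpha, which is made in regenerating muscle and activated fibroblasts and sheds heparin-binding EGF, reached 3.73 in the authors' deposited table (13.3-fold, adjusted p = 5.29e-107). They ranked numbers 46 and 50 of the listed rises. Both are on the minus strand of chromosome 7, Adam8 at 139978932 to 139992562 and Adam12 at 133883199 to 134232146. Adam9, meltrin gamma, a widely expressed sheddase, was at 1.28 (adjusted p = 3.94e-83) in the authors' deposited table. Adam23, a nervous system type ADAM that lacks the residues needed for catalysis and works as an adhesion receptor, was at -0.54 (adjusted p = 3.43e-04) in the authors' deposited table. The best known sheddase genes, Adam10 and Adam17, have no value in the table, as do the other 27 unlisted genes of the 33 annotated in the family.

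Size and adjusted p ran apart for several of these genes. Adam9 and the versican-cutting enzyme gene Adamts20 had similar rises, 1.28 and 1.23, with adjusted p-values of 3.94e-83 and 7.48e-05 in the authors' deposited table. Among the falls, Mmp15 at -0.63 and Adamts17 at -0.67 had 7.23e-50 and 3.75e-04 in the authors' deposited table. Levels and spread per gene were not used here. The adjusted p was under 0.001 for 27 of the 28 (96.4%; 88.0% of all listed genes), the exception being Adamtsl1 at 1.24e-03 in the authors' deposited table.

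**Figure D2:**
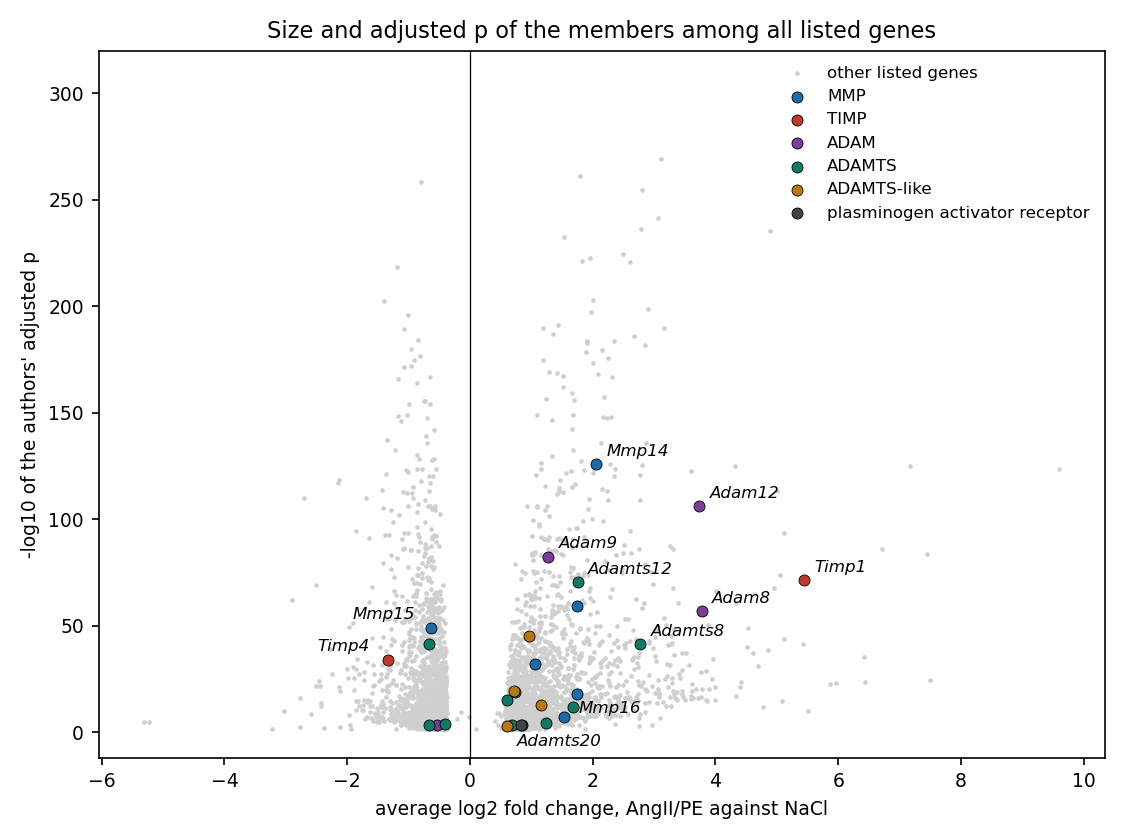
Average log2 fold change (horizontal) against -log10 of the authors' adjusted p (vertical) for all listed genes in grey and the 28 genes in colour by family, with 11 of the 28 labelled; genes listed at an adjusted p of 0 cannot be drawn. Mmp14 is the highest coloured point, Timp1 is furthest right at 5.44 and Timp4 furthest left at -1.33.

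Of the 10 listed ADAMTS genes, 7 were higher and 3 lower (70.0% higher, beside 56.2% of all listed genes). The 4 listed enzymes of the aggrecan and versican class were all higher, but this class was not among the lists set beforehand. Among these, Adamts8 led in the authors' deposited table at 2.77 (6.83-fold, adjusted p = 4.01e-42), ahead of Adamts4 at 1.67 (adjusted p = 2.21e-12). Adamts8 is also known as an inhibitor of blood vessel growth, and Adamts4 as an aggrecanase. Adamts20 followed at 1.23, and Adamts1, a versican-cutting enzyme of the heart and ovary, was at 0.60 (adjusted p = 5.58e-16) in the authors' deposited table. The rise of Adamts1 was larger than 1.22% of the listed rises, so it lies at the lower edge of the table. The class members Adamts5, Adamts9 and Adamts15 have no value. Adamts5 is 53.1 kb from Adamts1 on chromosome 16 and Adamts15 is 20.1 kb from Adamts8 on chromosome 9.

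The remaining listed ADAMTS genes were set in pairs by function or linked disease, and the genes of each pair moved in opposite directions. Adamts12 and Adamts7, which both cut cartilage oligomeric matrix protein, stood in the authors' deposited table at 1.76 (adjusted p = 4.43e-71) and -0.66 (adjusted p = 5.14e-42). Adamts14 and Adamts3, procollagen N-proteinases, stood in the authors' deposited table at 0.68 (adjusted p = 3.88e-04) and -0.41 (adjusted p = 1.23e-04). Adamts3 also processes the lymphatic growth factor Vegfc. Adamts10 and Adamts17, both linked in humans to short stature syndromes of fibrillin microfibrils, were at 0.74 (adjusted p = 9.92e-20) and -0.67 in the authors' deposited table. All 3 lower ADAMTS genes thus stand beside a higher gene of like function or linked disease, a grouping made after the values were seen. The difference within each pair was not tested.

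Several ADAMTS values rest on loci that share exonic bases with another gene. Adamts7 overlaps Tbc1d2b and Adamts8 the antisense gene Gm29724, neither of which has a value. The sources used here do not state whether counting used strand, so reads of such pairs cannot be told apart. Including Adamts4, Mmp19, Timp4 and Adam8, which overlaps Gm16201, this sharing holds for 6 of the 28 genes, and the other 22 divided into 18 higher and 4 lower.

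All 4 listed ADAMTS-like genes rose, within a narrow range. Adamtsl2, a microfibril protein that binds latent TGF-beta binding protein, was highest at 1.16 (adjusted p = 2.61e-13) in the authors' deposited table. Adamtsl5, which binds fibrillin, was at 0.95 (adjusted p = 4.97e-46), Adamtsl3 at 0.72 (adjusted p = 3.08e-20) and Adamtsl1 at 0.61 in the authors' deposited table. Their median of 0.84 lies below that of all listed rises (1.06). Adamtsl4 has no value in the table.

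Plaur, the cell surface receptor that holds urokinase where plasminogen is activated, rose by 0.83 in the authors' deposited table (1.78-fold, adjusted p = 3.66e-04), a rise larger than 30.3% of the listed rises. The protease genes Plau and Plat, which encode urokinase and tissue plasminogen activator, and the secreted serine protease genes Htra1 and Htra3 have no value. The rest of the plasminogen and clotting system, from a list of 17 genes, had 4 higher and 3 lower (median 0.87). Serpine2, protease nexin, which inhibits urokinase and thrombin, was at 1.34 in the authors' deposited table. Anxa2, a surface binding protein of plasminogen and tissue plasminogen activator, was at 1.67 and its partner S100a10 at 1.02 in the authors' deposited table. Vtn, vitronectin, a matrix protein that binds the urokinase receptor, was at -1.24 in the authors' deposited table. The receptor gene was thus listed as higher without a value for the activators themselves.

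Counts for other genes of the protease system stand beside 56.2% higher over all listed genes, and the plasminogen list above, at 57.1%, is near that share. From a list of 31 partners and substrates of ADAM sheddases, 10 were higher and 4 lower (71.4% higher, median 0.86). Hbegf, the heparin-binding EGF precursor that Adam12 can release, was at 1.86 (adjusted p = 6.52e-124) in the authors' deposited table. The adhesion receptor gene Cd44 was at 1.70, the tetraspanin gene Tspan17, a partner of Adam10, at 1.35 and Cx3cl1, a membrane-bound chemokine that is shed, at 1.33 in the authors' deposited table. Of 25 further matrix and pericellular protease genes and their helpers, 11 were higher and 2 lower (84.6% higher, median 1.64). St14, the membrane serine protease matriptase, was at 5.11 (adjusted p = 9.75e-45), Ctss, cathepsin S, at 2.37, Pappa, which cuts IGF binding proteins, at 2.13 and Prss23 at 1.85 in the authors' deposited table.

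Matrix proteins that ADAMTS enzymes cut or bind were higher in all 6 listed of 14 (median 1.98). Vcan, versican, was at 1.99, the fibrillin genes Fbn2 and Fbn1 at 2.05 and 1.97 and Tnc, tenascin-C, at 7.17 in the authors' deposited table. Comp, cartilage oligomeric matrix protein, had the smallest rise of the 6, 1.13, with an adjusted p of 0.0395 in the authors' deposited table. The aggrecan gene Acan has no value. Of 20 further genes of protease activators, inhibitors and matrix proteins that bind or regulate proteases, 6 were higher and Wfdc1 was lower (85.7% higher, median 1.14). The higher genes include Cst3 and Cstb, at 0.88 and 0.64 in the authors' deposited table, which encode cystatins, inhibitors of cysteine proteases and not of metalloproteinases. In this list the convertase gene Furin and the membrane inhibitor gene Reck have no value. Thbs1, thrombospondin, was at 2.64, Emilin1 at 2.001, Sparc at 1.96 and Thbs2 at 1.14 in the authors' deposited table. Over all listed genes, of either direction, the median was 0.67.

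**Figure D3:**
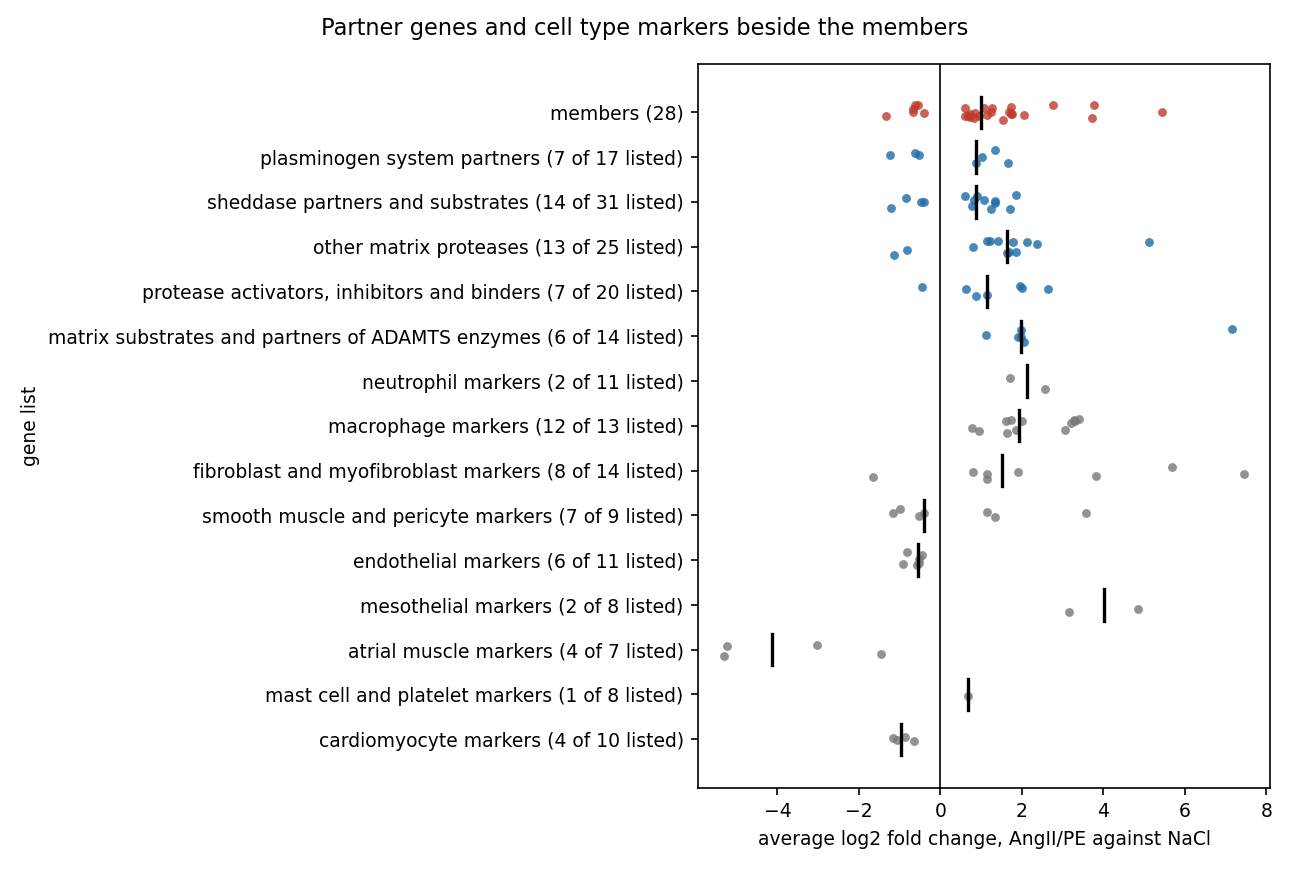
Average log2 fold change of the listed genes of each list (points, spread vertically at random for visibility) with the list's median (black bar): the 28 genes in red, partner lists in blue and cell type markers in grey, with the number listed of the number in each list. Partner medians run from 0.86 to 1.98, endothelial and cardiomyocyte markers lie left of 0 and macrophage markers right of it.

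Markers of other cell types moved alongside these genes. In whole tissue, fewer cells of a type and less RNA per cell cannot be told apart. Of 13 macrophage markers 12 were listed, all higher, from 0.79 to 3.40, beside the leukocyte sheddase gene Adam8 at 3.78 in the authors' deposited table. Of 11 neutrophil markers only Lcn2 (2.56) and Csf3r (1.71) had a value in the authors' deposited table, and S100a8, S100a9, Mpo and Elane did not. Fibroblast and myofibroblast markers were 7 higher and 1 lower of 14, from -1.65 for Gsn to 7.45 for Cthrc1 in the authors' deposited table, and Pdgfra, Dcn and Tcf21 had no value. Mesothelial markers had 2 of 8 listed, both higher, and mast cell and platelet markers 1 of 8.

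Beside the genes that fell, 6 of 11 endothelial markers were listed, all lower, from -0.92 to -0.45, and 4 of 10 cardiomyocyte markers, all lower, from -1.17 to -0.65, in the authors' deposited table. Timp4 at -1.33 lies just outside the range of those cardiomyocyte markers. Smooth muscle and pericyte markers were 3 higher and 4 lower of 9. Atrial muscle markers had 4 of 7 listed, all lower, from -5.30 to -1.46 in the authors' deposited table. The part of these cells in the values of the protease genes was not tested, and the table gives no levels against which the tissue label could be checked.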

How the data were processed

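Left ventricular RNA was sequenced in 12 libraries, grouped as the labels give them. The submitters' processing notes name STAR 2.4.2a, featureCounts, Subread, cutadapt and DESeq2 and the build mm10, without order or settings. The deposited values are the authors' average log2 fold changes and p-values adjusted for the false discovery rate, per the file headers. The sources used here state neither what was averaged nor how many genes were tested, nor the listing rule. Because the table is a list of called genes, a scaling shift between libraries or an uneven listing rule would move the split of higher against lower genes: the 5th percentile of listed rises is 0.63 and the 95th of listed falls -0.41. Columns of values per library used: 0, so depth and precision are unknown, and no label says whether libraries came from separate mice.

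Members were counted, ranked and compared with all listed genes in Python 3.11.15 (pandas 2.3.3); no test was added, since the table allows none and models for values per library could not be run. All 28 genes matched GENCODE M21 by symbol, and 17 had a RefSeq promoter window. Protein sequences, and the searches for protein motifs planned with them, were not used here, and a few items are not reported here. All members are named, with up to 4 listed genes of largest absolute change from each of 5 lists of partner genes. Wfdc1, Cst3, Cstb, further genes of those lists without a value, the overlapping genes, the ADAMTS pairs and the marker examples were chosen after their values were seen. The members and the 21 lists (284 genes) were chosen with earlier results of these data known. Alternatives were adjusted p thresholds of 0.01 and 0.001, a minimum absolute log2 fold change of 1, recentring, removal of 518 predicted models, RIKEN clones and pseudogenes, and, added after seeing the data, removal of members that share exonic bases with another gene.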

Additional observations from a re-analysis of the deposited data

How the results depend on the processing

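The 6 alternatives could not change a member's direction: 5 of them only drop genes, and recentring moves each value by 0.11, less than the size of any member's value. They were adjusted p thresholds of 0.01 (28 members left) and 0.001 (27), a minimum absolute log2 fold change of 1 (15), recentring by 0.11 (28), removal of predicted models, RIKEN clones and pseudogenes (28), and, chosen after seeing the data, removal of members that share exonic bases with another gene (22). With that minimum size, 14 members were higher and 1 lower, because fewer genes pass, and 81.5% of all genes left were higher. The median of the members that rose ran from 1.11 to 1.74 over the alternatives. Without the members that share exonic bases it was 1.11, beside 1.06 for all rises. That gap is smaller than in the main setting, with 1.26 beside 1.06. With recentring the medians were 1.14 for members and 0.95 for all rises, and with the minimum size 1.74 and 1.51. Other count models, filters and leaving out libraries were not run, as they need values per library. No paired analysis was possible because the values come from the authors' comparison and no values per library were used. Without depth or spread, low and high genes cannot be told apart here.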
